A study of Homo sapiens with 15 samples.

Results

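The immediate early AP-1 and EGR genes examined here were FOS, FOSB, FOSL2, JUN, JUNB, JUND, EGR1, ATF3, IER2 and IER3, chosen by name. No measured value entered the rule, though the list was drawn up with earlier results of these data known. Of these 10 genes, 8 were analysed among the 17272 genes of the expression table, and FOS and IER3 were not analysed here. Polyadenylated RNA had been sequenced in 15 libraries of LNCaP, a line of human prostate cancer cells that respond to androgen. In 10 libraries the cells had received 1 nM of the synthetic androgen R1881 with DMSO, and in 5 libraries 1 nM R1881 together with 2 µM enzalutamide, a drug that blocks the androgen receptor. All cells had first been deprived of androgen for 2 days in medium with charcoal-stripped serum and were collected at 22 h of treatment. Both groups thus carried R1881, no androgen-free library was part of the comparison, and the cells were of a single line. The comparison asks how blocking the androgen receptor in the presence of androgen changes expression.

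Immediate early genes are transcribed within minutes of a stimulus, from regulators already present in the cell, and most of their mRNAs are short-lived. The FOS and JUN family proteins pair through leucine zippers to form AP-1, which binds DNA at a short palindromic site, and pairs of JUN or ATF proteins also bind a longer relative of it, the cyclic AMP response element. EGR1 is a zinc finger factor that binds GC-rich sites and is induced through serum response factor, which binds CArG boxes together with ternary complex factors such as ELK1 and ELK4. In prostate cells the androgen receptor and AP-1 are known to act on each other. A collection at 22 h comes after the first burst that can follow the start of treatment. With a single time point, whether the levels of these mRNAs were steady was not tested.

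Stretches of 4 promoters are shown because they hold letters that match sites known for JUN, ATF and serum response factors, read from RefSeq (GRCh38.p14), 5′ to 3′ on the strand of the gene and ending before the start site. Capitals mark the CRE-like octamers TGACATCA and TGACGTCA and its shorter core TGACG, or CGTCA on the other strand, and in EGR1 also the CArG boxes. Positions are counted back from the start site, the base before it being -1.
JUN, chr1:58784057-58784147, minus strand: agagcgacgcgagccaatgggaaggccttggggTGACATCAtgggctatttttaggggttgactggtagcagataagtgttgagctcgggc
ATF3, chr1:212565257-212565327, plus strand: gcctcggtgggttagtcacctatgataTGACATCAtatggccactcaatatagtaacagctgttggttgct
JUND, chr19:18281698-18281832, minus strand: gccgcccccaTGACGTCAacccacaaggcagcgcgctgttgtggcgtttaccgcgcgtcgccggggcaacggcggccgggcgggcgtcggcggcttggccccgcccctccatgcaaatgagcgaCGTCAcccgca
EGR1, chr5:138465329-138465469, plus strand: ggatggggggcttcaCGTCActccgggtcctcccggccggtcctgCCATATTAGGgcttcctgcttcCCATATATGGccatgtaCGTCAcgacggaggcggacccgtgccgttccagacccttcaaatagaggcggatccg

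Over the 250 bases before each start site, both strands were searched. TGACNTCA, the octamer that JUN and ATF pairs bind, was found in JUN at -67, in the upstream promoter of ATF3 at -123 and in JUND at -200, and in 6.87% of all 35116 RefSeq promoters. JUN and this ATF3 promoter carried the same 8 letters, TGACATCA, while a second ATF3 promoter, at chr1:212614768-212615067, held none of the motifs searched. The CArG box was found only in EGR1 among the members searched, at -105 and at -83, and in 1.16% of all promoters. EGR1 also held GCGNGGGCG, the site that EGR proteins bind, at -198, against 8.41% of all promoters. The core TGACG, which lies within TGACGTCA, was found in every member other than ATF3, against 21.22% of all promoters. The windows that held it were 62.0% to 74.8% GC, and those of ATF3 49.2% and 44.8%. The shares of all promoters were not matched for GC content. AGAACA, the core repeated in androgen response elements, was found in FOSB alone at -142, against 12.39% of all promoters. TGANTCA, the AP-1 site, was in none of these windows and in 6.57% of all promoters. These matches describe letters in the window and not binding.

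The values are those deposited by the authors, on the CPM scale, which sets counts relative to library size. Each could be turned back into a whole number of reads, which gave between 15830745 and 25416052 reads per library. Every difference below is a log2 fold change of R1881 + enzalutamide over R1881 on log2(value + 0.5), tested with limma and adjusted over the 17046 genes with a mean value of at least 0.5, and it understates the change of genes with low values. The androgen-induced genes fell as a check of the treatment, with log2 fold changes of -3.55 for KLK3, -4.87 for KLK2, -3.56 for TMPRSS2 and -4.99 for FKBP5. Of 9 markers of LNCaP and luminal cells all were expressed, with 4 lower and 4 higher by limma (32.7% and 29.8% of all genes), among them KRT8 (-2.18). Of 12 markers of leukocytes, fibroblasts and other cells 6 were analysed, and their summed value lay 14.5 to 20.1 in the R1881 libraries and 27.5 to 33.8 in those with enzalutamide. COL3A1, a fibroblast collagen, rose by a log2 fold change of 2.44, COL1A1 by 0.69 and VWF, of endothelial cells, by 0.28. KRT14, of basal cells, was lower (-1.35), as was SYP, of neuroendocrine cells (-0.43), while ACTA2 did not pass the test. The part of other cells in the results was not tested. The libraries are numbered 51 to 55 and 71 to 75 with R1881 and 81 to 85 with R1881 + enzalutamide. The sources used here do not give what these numbers stand for, and no series of numbers held both treatments, so series and treatment cannot be told apart. Libraries 73, 74 and 83 had the highest slopes on GC content, at 0.24, 0.13 and 0.16 on the log2 scale per 10 percentage points. Genes rich in GC thus read higher in them. The other 12 libraries lay between -0.14 and 0.03, and the rule for outlying libraries used further below flagged no slope. Each slope was taken after removal of the gene means of the library's own treatment, so slopes do not compare the treatments. The study's methods call the samples biological replicates, and the labels do not say whether each came from a culture of its own.

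The members moved in both directions and by small steps. With enzalutamide FOSL2, ATF3 and EGR1 were lower, and JUN, JUND, IER2 and FOSB were higher, while JUNB did not pass the test. Thus 7 of 8 members were called by limma, where 62.5% of all genes tested were. By direction 3 of 8 were lower (32.7% of all genes) and 4 of 8 were higher (29.8% of all genes). For 2 of 8 members no R1881 library overlapped the R1881 + enzalutamide libraries, against 37.2% of all genes. No member changed by 1.5-fold or more on this scale, although FOSB did on its reads. Of the 17046 genes tested, 1628 passed the test with such a change downward and 1544 upward. Whether 0 of 8 members departs from these shares was not tested. The median log2 fold change was 0.27 over the members and -0.01 over all genes. In bulk RNA, fewer cells that express a gene and less of its RNA per cell cannot be told apart.

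**Figure D1:**
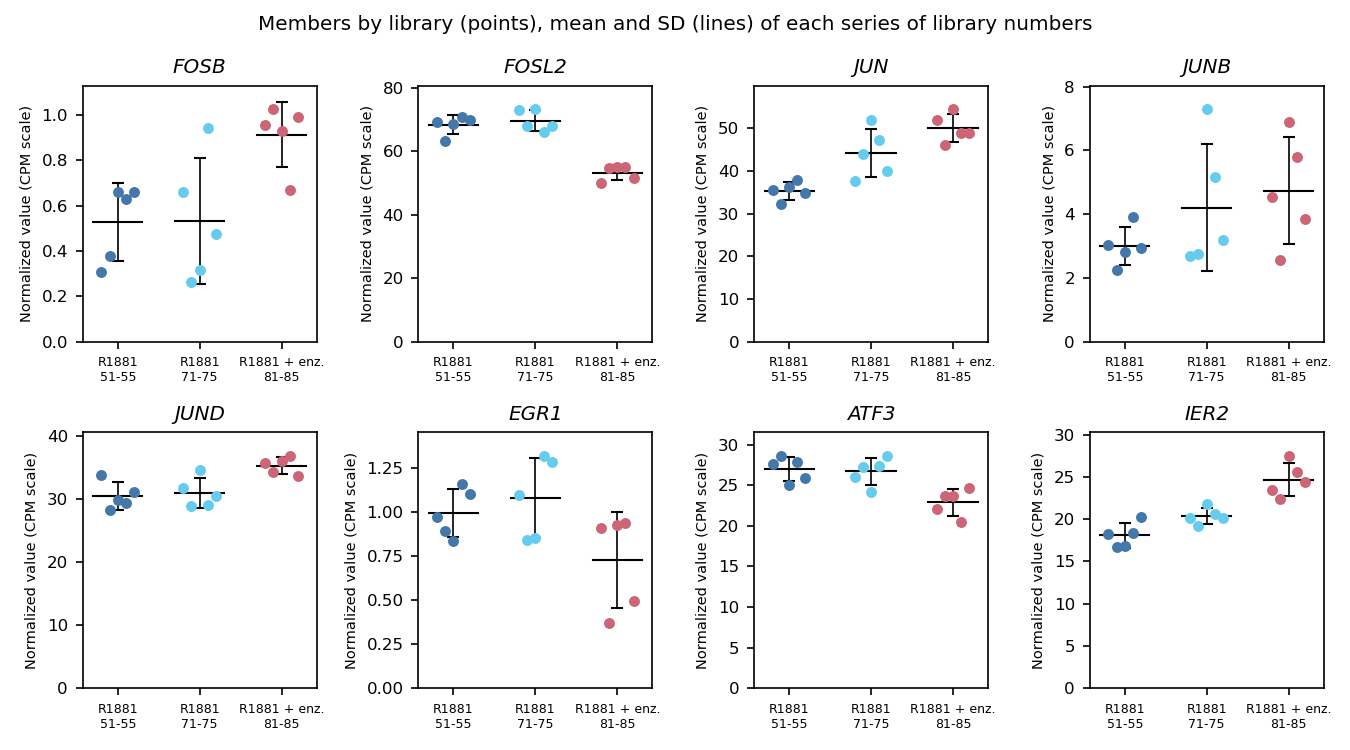
Value on the CPM scale (vertical axis, from 0) of each of 8 members in every library (points), by series of library numbers, with mean and SD (lines, n = 5 each). FOSL2 lies lower and IER2 higher in all 5 libraries of R1881 + enzalutamide (red) than in all 10 of R1881 (blue), while the JUNB points of the 3 series overlap.

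Among the FOS family, FOSL2, which encodes FRA-2, was by far the more abundant of the 2 members measured, and it fell. FOSL2 lies on the plus strand of chromosome 2 from 28392448 to 28417317 of GRCh38. Its value was between 63.2 and 73.2 in the R1881 libraries (median 68.9), and 49.9, 54.8, 54.9, 54.9 and 51.7 in R1881 + enzalutamide libraries 81 to 85. Every library with enzalutamide lay below every library without it, and neither group held a stray library. The mean decreased from 68.9 ± 3.06 (SD, n = 10) to 53.2 ± 2.31 (SD, n = 5), a log2 fold change of -0.37 (SE 0.039, adjusted p = 5.49e-08 from limma). The two-sided exact permutation test over 3003 regroupings gave p = 0.000333, the smallest this design allows. Against R1881 libraries 51 to 55 alone the log2 fold change of FOSL2 was -0.36 and against 71 to 75 alone -0.38. The annotation (GENCODE v44) places a noncoding gene on the same strand within FOSL2, and FOSL2-AS1 on the other, and reads of these may have been counted with it.

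FOSB, the partner of JUN proteins that resembles FOS most closely, was low in all libraries and rose. FOSB lies on the plus strand of chromosome 19 from 45467995 to 45475179. It had 104 reads in all 10 R1881 libraries together and 102 reads in the 5 libraries with enzalutamide. Its value lay between 0.27 and 0.94 with R1881 (median 0.55) and was 0.96, 1.02, 0.93, 0.67 and 0.99 in libraries 81 to 85. Library 74 was the high one of the R1881 group and library 84 the low one of the other, and the groups overlapped through library 74 alone. The mean rose from 0.529 ± 0.217 (SD, n = 10) to 0.913 ± 0.142 (SD, n = 5), a log2 fold change of 0.48 (SE 0.141, adjusted p = 0.00574 from limma). On the recovered reads edgeR gave a log2 fold change of 0.85 (adjusted p = 0.00409 from edgeR), a larger value. That fit adds no 0.5 to the value and also scales the libraries differently, and the part of each was not tested. With either R1881 series alone the limma value was 0.47 (51 to 55) and 0.49 (71 to 75). FOSB overlaps ERCC1, a repair gene on the opposite strand, whose value rose from 31.7 ± 2.30 (SD, n = 10) to 37.7 ± 2.36 (SD, n = 5), by a log2 fold change of 0.25 (adjusted p = 0.000451 from limma). The kit keeps the strand, but the sources used here do not say whether the counting used it, and the part of ERCC1 reads in FOSB was not tested.

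Of the JUN family, JUN and JUND rose, and JUNB did not pass the test. JUN, the strongest activator among the 3, occupies chromosome 1 from 58776845 to 58784048, on the minus strand, downstream of the octamer shown above. Its value was between 32.3 and 51.9 with R1881 (median 37.7), and it was 52.0, 46.1, 54.5, 49.0 and 49.0 in libraries 81 to 85. All 5 libraries with enzalutamide lay above the R1881 median, but only 81 and 83 lay above the highest R1881 library, 73. The mean rose from 39.7 ± 6.14 (SD, n = 10) to 50.1 ± 3.21 (SD, n = 5), a log2 fold change of 0.34 (SE 0.086, adjusted p = 0.0017 from limma). The size depended on the R1881 libraries it was set against, at 0.50 against libraries 51 to 55 (adjusted p = 1.87e-07 from limma) and 0.19 against libraries 71 to 75 (adjusted p = 0.0491 from limma).

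JUND, the family member that many cells express at a steady level, occupies chromosome 19 from 18279694 to 18281622, on the minus strand. Its value was between 28.3 and 34.7 with R1881 (median 30.2) and 35.7, 34.4, 36.0, 36.9 and 33.7 in libraries 81 to 85. The libraries with enzalutamide sat at the upper edge of the R1881 range, 3 of them above it. The mean rose from 30.7 ± 2.16 (SD, n = 10) to 35.3 ± 1.29 (SD, n = 5), by a log2 fold change of 0.20 (SE 0.050, adjusted p = 0.0016 from limma). It was 0.21 against R1881 libraries 51 to 55 alone and 0.19 against 71 to 75 alone. JUND is the member richest in GC, at 69.9%, and after removal of the GC trend in each library its log2 fold change of 0.20 no longer passed (adjusted p = 0.105 from limma).

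JUNB, which often restrains JUN, lies on the plus strand of chromosome 19 from 12791486 to 12793315, and its values were spread widely between libraries of the same treatment. Its value was between 2.26 and 7.29 with R1881 (median 3.0) and 4.55, 2.56, 6.88, 5.80 and 3.86 in libraries 81 to 85. Libraries 73, 83, 84 and 74 were the high ones, from both treatments, and the groups overlapped over nearly their whole ranges. The mean was 3.6 ± 1.53 (SD, n = 10) and 4.73 ± 1.68 (SD, n = 5), a log2 fold change of 0.36 with a 95% interval from -0.09 to 0.80 (adjusted p = 0.154 from limma). JUNB has a GC content of 64.9%, and 3 of its 4 high libraries are those with the highest slopes on GC content. With the trend on GC content removed JUNB passed, with a log2 fold change of 0.38 (adjusted p = 0.0104 from limma), and without libraries 73, 74 and 83 together, a choice made after seeing the data, with 0.41 (adjusted p = 0.0141 from limma). It also passed without library 73 alone, with 0.47 (adjusted p = 0.0208 from limma), and without library 82 alone, with 0.53 (adjusted p = 0.0351 from limma), whereas without library 83 alone it was 0.22 (adjusted p = 0.407 from limma). Against R1881 libraries 51 to 55 alone it was 0.53 (adjusted p = 0.0172 from limma), and against 71 to 75 alone 0.18 (adjusted p = 0.573 from limma). HOOK2, which overlaps JUNB on the opposite strand, had values of 40.5 ± 5.28 (SD, n = 10) and 37.2 ± 4.35 (SD, n = 5) and did not pass the test (adjusted p = 0.227 from limma).

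**Figure D2:**
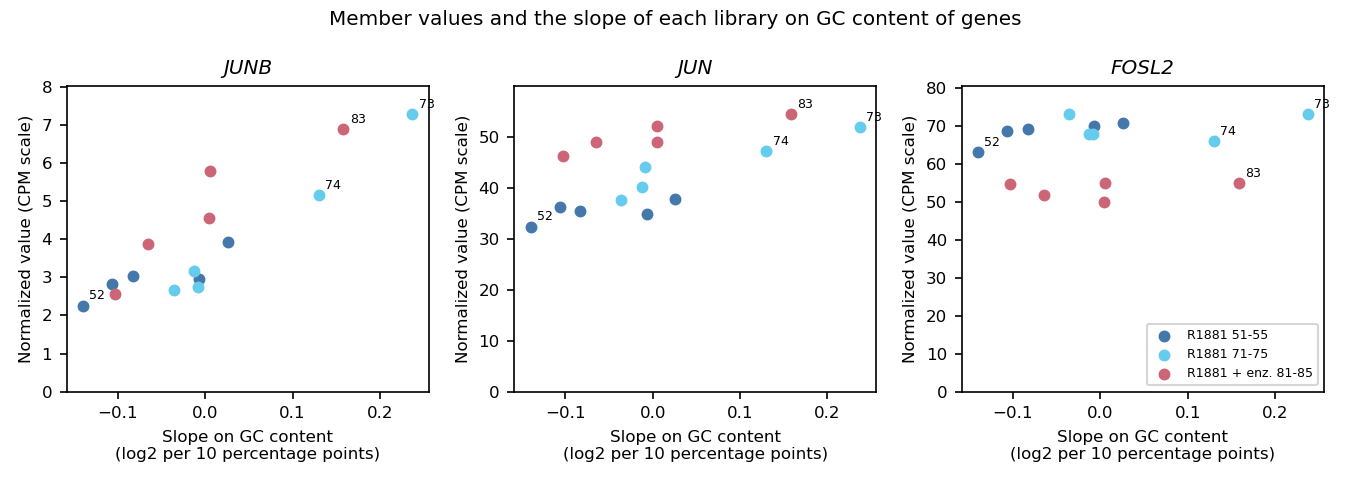
Value on the CPM scale (vertical axis, from 0) of JUNB, JUN and FOSL2 in each library against that library's slope on GC content, coloured by series. The slope (horizontal axis, log2 per 10 percentage points) was fitted to deviations from the mean of each gene over libraries of the same treatment. JUNB is highest in library 73 (7.29), where the slope is 0.24, and lowest in library 52 (2.26), where it is -0.14, while FOSL2 separates the treatments at every slope.

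EGR1, the only EGR member analysed, was low throughout and fell. EGR1 lies on the plus strand of chromosome 5 from 138465479 to 138469303, next to the CArG boxes shown above, and no other gene overlaps it in the annotation. It had 207 reads in the 10 R1881 libraries together and 83 reads in the 5 libraries with enzalutamide. Its value lay between 0.84 and 1.32 with R1881 (median 1.03) and was 0.91, 0.37, 0.93, 0.94 and 0.49 in libraries 81 to 85. Libraries 82 and 85 lay below all R1881 libraries, whereas 81, 83 and 84 fell within the R1881 range. The mean fell from 1.04 ± 0.183 (SD, n = 10) to 0.729 ± 0.274 (SD, n = 5), a log2 fold change of -0.34 (SE 0.129, adjusted p = 0.0257 from limma). This call rested on libraries 82 and 85. Without library 82 the log2 fold change of EGR1 was -0.23 (adjusted p = 0.123 from limma) and without library 85 it was -0.28 (adjusted p = 0.092 from limma). Against R1881 libraries 51 to 55 and 71 to 75 alone it was -0.31 and -0.38, neither past the threshold. On the recovered reads it was -0.44 and missed the threshold (adjusted p = 0.0684 from edgeR).

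ATF3, a stress-induced member of the ATF family that pairs with JUN proteins, fell. ATF3 lies on the plus strand of chromosome 1 from 212565334 to 212620777. Its value was between 24.1 and 28.6 with R1881 (median 27.3), and 22.1, 23.7, 23.7, 20.4 and 24.6 in libraries 81 to 85. The groups met only where library 73 of R1881, its lowest, fell under library 85 of R1881 + enzalutamide, its highest. The mean fell from 26.8 ± 1.5 (SD, n = 10) to 22.9 ± 1.66 (SD, n = 5), a log2 fold change of -0.22 (SE 0.052, adjusted p = 0.000838 from limma). Against R1881 libraries 51 to 55 and 71 to 75 alone it was -0.23 and -0.22, and with library totals set to 1000000 it was smaller, at -0.13 (adjusted p = 0.0266 from limma).

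IER2, which encodes a small protein of the immediate early response, rose in every library with enzalutamide. IER2 lies on the plus strand of chromosome 19 from 13150411 to 13154911, where the annotation has a pair of noncoding genes on the opposite strand. Its value was between 16.7 and 21.8 with R1881 (median 19.7), and 23.4, 22.4, 27.5, 25.5 and 24.4 in libraries 81 to 85. The ranges of the treatments did not meet. The mean rose from 19.2 ± 1.68 (SD, n = 10) to 24.7 ± 1.95 (SD, n = 5), a log2 fold change of 0.35 (SE 0.065, adjusted p = 7.74e-05 from limma; two-sided exact permutation test, p = 0.000333). Against R1881 libraries 51 to 55 alone it was 0.44 and against 71 to 75 alone 0.27.

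**Figure D3:**
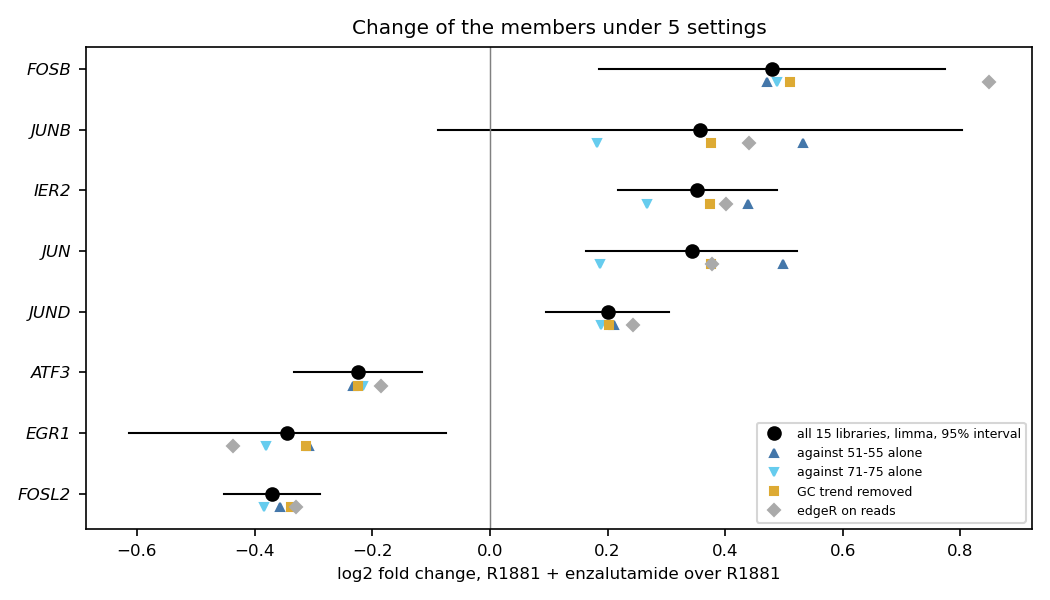
Log2 fold change of R1881 + enzalutamide over R1881 (horizontal axis) of each member, with the 95% interval from limma over all 15 libraries (black), and the same change against R1881 libraries 51 to 55 or 71 to 75 alone, with the trend on GC content removed, and by edgeR on the recovered reads (coloured marks, no interval). Each member keeps its direction under the settings drawn, and JUN moves from 0.50 to 0.19 between the 2 R1881 series.

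The R1881 libraries of the 2 series received the same treatment, and their comparison shows how far the members move without a change of drug. Of the 8 members only JUN differed between libraries 71 to 75 and 51 to 55, where 3.71% of all genes tested did. JUN was 35.5, 32.3, 36.2, 37.8 and 34.8 in libraries 51 to 55 and 37.6, 44, 51.9, 47.2 and 40.1 in libraries 71 to 75. These overlapped through libraries 54 and 71, and the high values were those of 72, 73 and 74. The mean was 35.3 ± 2.02 (SD, n = 5) and 44.2 ± 5.66 (SD, n = 5), a log2 difference of 0.31 (SE 0.071, adjusted p = 0.0256 from limma), close in size to that between treatments. Leaving out library 51, 52, 53, 73 or 74 each ended this call (adjusted p between 0.0616 and 0.079 from limma), although the difference stayed between 0.25 and 0.37 when any single library was left out. The call was also lost on leaving out 73, 74 and 83 together (log2 difference 0.20, adjusted p = 0.0987 from limma). IER2 was higher in 71 to 75 by 0.17 on the log2 scale and did not pass (adjusted p = 0.127 from limma). JUNB differed by 0.35 with a 95% interval from -0.14 to 0.85 (adjusted p = 0.361 from limma), and the other members by 0.07 at most, none of them past the threshold.

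Levels of different genes can be set beside each other only per length. Per kb of exon, the order with R1881 was JUND, at 15.9 ± 1.12 (SD, n = 10), JUN, at 11.0 ± 1.69, FOSL2, at 9.63 ± 0.427, ATF3, at 6.71 ± 0.375, IER2, at 6.24 ± 0.546, JUNB, at 1.97 ± 0.836, EGR1, at 0.330 ± 0.058, and FOSB, at 0.095 ± 0.039. JUN and FOSL2 were neighbours whose ranges overlapped, as were ATF3 and IER2. Among 14632 genes with a length, JUND stood at percentile 77.6 of the levels per kb, JUN at 69.5 and FOSL2 at 66.3, whereas EGR1 stood at 8.0 and FOSB at 1.9. With enzalutamide FOSL2 fell to 7.43 ± 0.323 (SD, n = 5) per kb and IER2 rose to 8.01 ± 0.635. By this length IER2 moved ahead of FOSL2 and of ATF3, at 5.73 ± 0.414, with ranges of IER2 and FOSL2 that overlapped. The place of ATF3 depends on the length used. Its exons together span 3998 bases and its longest transcript 2103, against 3079 and 2934 for IER2. A shorter length raises the level per kb, and the order by longest transcript is not given here.

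Because AP-1 is a dimer, the share of each subunit among the 5 measured was followed too. JUND made up 41.4% ± 2.49 of the summed level per kb with R1881 (SD, n = 10), JUN 28.3% ± 2.53, FOSL2 25% ± 1.54, JUNB 5.00% ± 1.61 and FOSB 0.249% ± 0.101. With enzalutamide the share of FOSL2 was 17.6% ± 1.1 (SD, n = 5) and that of JUN 32.7% ± 1.15. The share of FOSL2 lay between 22.0% and 26.4% in the R1881 libraries and between 16.4% and 19.2% in the others, with no overlap. JUND was at 43.3% ± 1.32 and JUNB at 6.03% ± 1.85, and these, like JUN, overlapped their R1881 ranges. The ratio of JUN family to FOS family mRNA per kb was 2.97 ± 0.262 (SD, n = 10) for R1881 and 4.58 ± 0.333 (SD, n = 5) for R1881 + enzalutamide, with ranges from 2.74 to 3.53 and from 4.08 to 4.95. The summed level of the 5 subunits was 38.6 ± 3.28 and 42.3 ± 2.25 per kb, with ranges that overlapped. These shares describe mRNA, they leave out FOS and FOSL1, which were not analysed here, and they rest on the same values as the tests above.

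**Figure D4:**
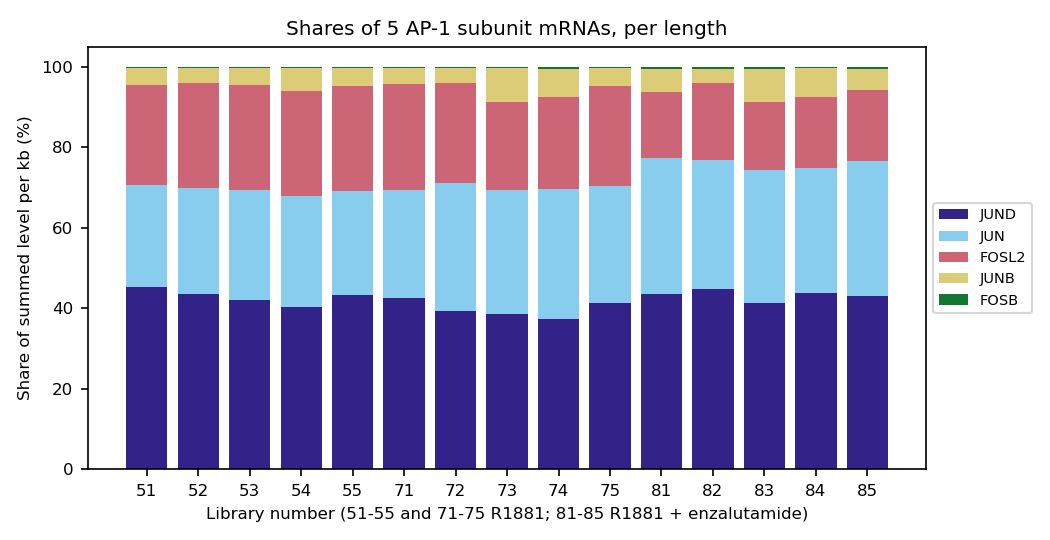
Share of each of 5 AP-1 subunit genes in their summed level per kb of exon (vertical axis, percent) in every library (bars, by library number). The FOSL2 segment is 22.0% to 26.4% in the 10 R1881 libraries and 16.4% to 19.2% in the 5 libraries with enzalutamide, and JUND is the largest segment throughout.

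Of 17 other AP-1 and ATF family genes tested, 4 were lower (32.7% of all genes) and 3 higher (29.8% of all genes). The median log2 fold change of this list was -0.05. MAF, a large MAF factor that binds an extended AP-1 site, fell from 105 to 12.1, a log2 fold change of -3.07 (SE 0.064, adjusted p = 6.62e-20 from limma). JDP2, a repressor that pairs with JUN, rose by 0.61, from 4.61 to 7.30, and CREB5, a CREB family factor, by 1.48, from 0.698 to 2.77. ATF4 did not pass the test, at -0.03 (adjusted p = 0.474 from limma). Of the corepressors of EGR proteins, NAB1 rose from 6.81 to 11.8, a log2 fold change of 0.76 (adjusted p = 9.93e-08 from limma), while NAB2 had 0.05 (adjusted p = 0.738 from limma). FOSL1, EGR2 and EGR3 were not analysed here.

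Of 32 other immediate early genes tested, 12 were lower and 17 higher (32.7% and 29.8% of all genes), with a median of 0.18. Those with the largest changes fell: TNFAIP3, an inhibitor of NF-kappaB signalling, by a log2 fold change of -2.65, SGK1, a kinase induced by steroids and serum, by -2.38, and NR4A1, an orphan nuclear receptor, by -2.37. NR4A1 went from 22.2 to 3.93 (adjusted p = 2.54e-13 from limma). KLF6, a zinc finger factor, also fell, by 0.51, whereas DUSP1, the phosphatase that switches off MAP kinases, rose by 0.41 and MYC by 0.36. NR4A2, from the same receptor family as NR4A1, rose by 1.74 from a value of 0.298, and was chosen after its values were seen.

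Upstream of these genes, 4 of 6 genes for serum response factor and its partners were lower and 1 was higher (median -0.24). Beside the counts of this paragraph, 32.7% of all genes tested were lower and 29.8% higher. ELK4, a ternary complex factor, fell from 312 to 117, a log2 fold change of -1.41 (SE 0.054, adjusted p = 2.81e-15 from limma), ELK3 rose by 0.52 and SRF fell by 0.30. SLC45A3, which lies next to ELK4 and was chosen after its values were seen, fell from 352 to 48.6. Of 17 genes of the ERK pathway 9 were lower and 3 higher (median -0.17), with EGFR at -0.95, the ERK-activated kinase RPS6KA3 at -0.71 and HRAS at -0.50. Of 12 genes of the JNK pathway, whose kinases phosphorylate JUN, 3 were lower and 1 was higher (median -0.06). MAP2K4, a kinase that activates JNK, fell from 155 to 77.4, a log2 fold change of -1.0 (SE 0.040, adjusted p = 4.67e-15 from limma), MAP3K1 rose by 0.43 and MAP3K11 fell by 0.29.

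Of 12 genes for the turnover and cofactors of AP-1 proteins, 2 were lower and 5 higher (median 0.01), with DET1, part of the ubiquitin ligase that degrades JUN, at 0.67, the coactivator NCOA1 at 0.38 and BACH1 at 0.20. For this list and the next ones, the shares over all genes tested were 32.7% lower and 29.8% higher. Only 4 of 16 commonly cited AP-1 targets were analysed, of which 3 were higher and 1 was lower (median 0.50). NTS, which encodes neurotensin, rose from 26.5 to 109.1, a log2 fold change of 2.03 (adjusted p = 2.6e-14 from limma), VIM, the intermediate filament vimentin, by 0.59 and HMOX1, heme oxygenase, by 0.41. Of 14 stress genes around ATF4 and ATF3, 5 were lower and 4 higher (median -0.01), with VLDLR at -1.48, DDIT3, which encodes CHOP, at 0.75 and SESN2 at 0.50. Of 12 heat shock genes 7 were lower and 1 was higher (median -0.16), with the chaperone HSPA4L at 0.93, BAG3 at -0.47 and HSPE1 at -0.41, while HSPA1A had -0.04 (adjusted p = 0.858 from limma).

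**Figure D5:**
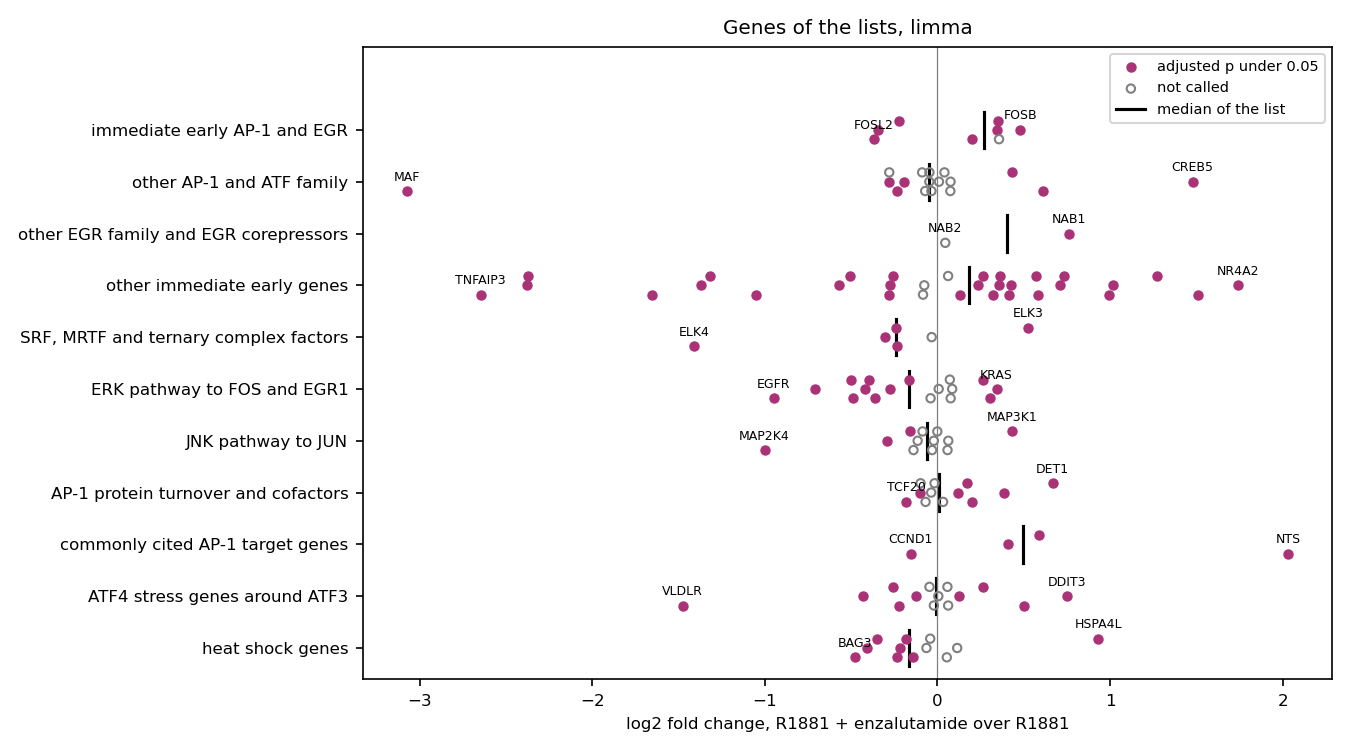
Log2 fold change of R1881 + enzalutamide over R1881 (horizontal axis) of each gene (points, filled where the adjusted p from limma was under 0.05) by list, with the median of each list (black line) and its extreme genes named. The immediate early AP-1 and EGR genes lie between -0.37 and 0.48, while other immediate early genes reach from -2.65 to 1.74.

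From library to library within a series, the genes closest to JUN were BRMS1, STRN4, SCRN2, NOSIP and FKBP2, with Pearson correlations of 0.954, 0.949, 0.948, 0.948 and 0.947 over the 15 libraries, series means removed. These 5 genes had GC contents of 60.0% to 61.4%, above the median of 48.9% over all genes, and all points come from libraries that differ in their slope on GC content, as given above. With treatment means removed in place of series means, the 5 closest were BRMS1, at 0.965, RHOB, SERF2, KRT8P37 and COA4. BRMS1 alone was shared with the first list, so the list also changed without a correction for GC content. With the trend on GC content removed, which was chosen after seeing the data, the 5 closest were NDUFAF5, at 0.880, METTL5, NOSIP, CCT6A and GTF2H2B. NOSIP alone was shared with the first list. EGR1 had between 8 and 25 reads a library, and the genes closest to it, led by GRB2 at 0.808 and LINC01341 at 0.805, followed by ELF3, RING1 and NCBP2-AS2, are given only as a description of sparse counts.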

How the data were processed

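Polyadenylated RNA of 15 LNCaP samples was sequenced (stranded kit, single-end reads). Per the methods and the labels, the authors mapped reads with STAR to GRCh38, counted them per gene with featureCounts and deposited a normalized signal that the methods call CPM. Columns summed to between 985580 and 1078567, so plain library totals were not the divisor, and the sources used here do not give the scaling. These sums differed by treatment without overlap, at 1053406 to 1078567 for R1881 and 985580 to 1008992 for R1881 + enzalutamide. The annotation and the versions of both tools are not given there either. The methods state the replicate numbers of the treatments the other way round from the labels, and the labels were followed. All values (100%) were whole reads within a tolerance of 0.01 reads. The 5 and 10 libraries limit the precision, and FOSB and EGR1 rest on few reads.

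The deposited signal was tested with limma 3.58.1 in R 4.3.3 (mean-variance trend, log2(value + 0.5), mean value of at least 0.5, treatment as the only term, two-sided, Benjamini-Hochberg adjustment, threshold 0.05). The design had been written for CPM, and the same test was used. Series 71 to 75 and 51 to 55 were compared in a fit of 3 groups. Exact permutation tests used all 3003 regroupings. Alternatives were edgeR 4.0.16 and DESeq2 1.42.0 on recovered reads, pseudocounts of 0.1 and 1, other filters and scalings, removal of the trend on GC content (spline with 5 degrees of freedom), replicate blocks, each R1881 series alone and each library left out. Leaving out libraries 73, 74 and 83 together, and removing the GC trend before correlations, were added after the data were seen. Lengths and GC content came from GENCODE v44 for the 85.8% of genes with a matching symbol, and promoters from RefSeq GRCh38.p14. The limma test between treatments was tried on simulated reads in which 200 genes changed by 2-fold, more than any member did. The other steps were not tried in this way.

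The members and the lists were chosen with earlier results of these data known. Named genes were the members, the 3 genes of each list with the largest change among those with a mean value of at least 1, 11 further genes set by name, 4 androgen targets and the 5 genes most like JUN and EGR1. FOS, IER3 and other genes without a match under a current or older symbol were not analysed here, nor was likeness to FOS.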

Additional observations from a re-analysis of the deposited data

Results flagged for a closer look

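FOSB in library 84 (R1881 + enzalutamide replicate 5) had a value of 0.667, from 17 reads, while the other libraries of its group lay between 0.930 and 1.02. Its gap to the nearest library was 0.738 of the range of the group, beyond what is usual for 5 samples. Over 28 groups examined in this way 1 such library was found, where chance gives about 1.4. These groups held member values, slopes on GC content and AP-1 shares by treatment, and the shares derive from the member values. Without this library the log2 fold change of FOSB was 0.55 (adjusted p = 0.00428 from limma), beside 0.48 with it.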

How the results depend on the processing

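Between treatments FOSL2, JUN, ATF3 and IER2 kept their direction and their call under all 31 alternatives tried, with adjusted p-values of at most 0.0491 from limma, edgeR or DESeq2. EGR1 missed the threshold in 7 alternatives, FOSB in 1 and JUND in 1, and JUNB passed in 6. For EGR1 these included either R1881 series alone (adjusted p = 0.0929 and 0.0616 from limma), library totals set to 1000000 (0.0634), edgeR (0.0684) and DESeq2 (0.0755). When single libraries were left out, 6 to 8 members were called. With a change of at least 1.5-fold required, 0 members, 29 genes of the lists and 3172 of all genes were called between treatments, and 4 genes and 0 members between the R1881 series. With library totals set to 1000000, 4288 genes were lower and 6641 higher. Pairs with the same number in the sample title had correlations from -0.108 to 0.127, on deviations from treatment means. Whether these numbers pair the samples was not tested. Last digits of the library numbers gave mixed correlations (-0.383 to 0.816), on deviations from series means. These ranges are not comparable, as libraries 55 and 85 had 0.127 by the first measure and -0.283 by the second. Libraries 52, 72 and 82 correlated at 0.454 to 0.586 and 73 with 83 at 0.816, while 53 with 83 had -0.383 and 55 with 75 had -0.366. Whether libraries with the same last digit belong together was not tested. A block for the title number left FOSB at 0.27 (adjusted p = 0.136 from limma) and 6 members called, and a block for the last digit let JUNB pass (adjusted p = 0.0462 from limma) with 8 members called. Between the R1881 series the count of 632 genes ran from 88 to 1117 when single libraries were left out, 1255 with the block for the last digit, 988 by DESeq2, 307 without the trend of limma, and 182 without libraries 73, 74 and 83. There JUN, the 1 member called, was not called without the trend (0 members), without libraries 73, 74 and 83 (0 members), or in part of the fits that left out a single library (0 to 1 members). Of the differences between the R1881 series that were not called, those of FOSB, FOSL2, JUNB, JUND, ATF3 and IER2 changed sign in some alternatives, and that of EGR1 did not. With the GC trend removed they were -0.0464 for FOSL2, -0.287 for JUND and -0.0331 for IER2. Without libraries 73, 74 and 83 they were -0.0419 for JUNB, -0.0032 for JUND and 0.0173 for ATF3. When single libraries were left out FOSB ranged from -0.148 to 0.0807, FOSL2 from -0.0011 to 0.0456, JUND from -0.0188 to 0.0604 and ATF3 from -0.0432 to 0.0182. The cause was not tested. EGR1 and FOSB had between 6 and 25 reads a library, which limits their precision.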
